A study of Homo sapiens with 6 samples.

Results

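Molecular chaperones and protein folding enzymes were followed after knockdown of the tyrosine kinase gene ABL1 in Huh7, a line established from a human liver carcinoma. Members were picked by a rule on gene symbols, set with earlier results of these data known. It covers the HSP70, HSP90, small heat shock and J-domain families, the chaperonin and prefoldin subunits, the cyclophilins, FKBP proteins, protein disulfide isomerases, thioredoxins, BAG proteins, tubulin cofactors and named endoplasmic reticulum chaperones. DNAJB9, DNAJC3, PDIA4 and HSPG2 match the same symbol pattern and were not counted as members. The rule found 103 of the 10191 rows, with 99 gene symbols. A row is a single RefSeq transcript, and 4 symbols have 2 rows. Genes with several RefSeq transcripts are thus mostly represented by 1 of them. By their identifiers 89 rows are coding and 14 non-coding transcripts, among them pseudogenes (PDIA3P1, CCT6P1, CCT6P3, HSP90B2P, HSPA7) and RNAs named after a neighbour (DNAJC3-DT, DNAJC27-AS1, DNAJC9-AS1).

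Total RNA came from 3 libraries of cells carrying a scrambled short hairpin RNA and 3 libraries of cells carrying a hairpin against ABL1, each 1 week after puromycin selection, which the control cells also went through. The sources used here do not give the sequence or number of hairpins, and all libraries are of this line. Nothing in the labels says whether replicates were separate cultures, so p-values cover only library-to-library spread, which may be technical alone. As these are bulk libraries, fewer cells of a kind and less RNA per cell cannot be told apart.

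Chaperones bind unfolded proteins and let them fold without clumping. HSP70 proteins do this in rounds of ATP hydrolysis that J-domain proteins start and that BAG proteins and other exchange factors end, and HSP90 then takes over a set of kinases and receptors with the help of partners such as FKBP4 and STIP1. Prefoldin hands actin and tubulin to the chaperonin TRiC. In the endoplasmic reticulum, which hepatocytes use heavily for secreted plasma proteins, HSPA5, HSP90B1 and calreticulin work beside protein disulfide isomerases such as P4HB, and cyclophilins and FKBP proteins turn the peptide bonds before proline.

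Counted reads ran from 6651413 to 10487862 per library. The normalized count used below is the read count times the authors' scale step, and its sum was 8573339 to 8744039 under the scrambled hairpin and 7517864 to 7779025 under the ABL1 hairpin. The targeted gene checked the labels: ABL1 transcript NM_007313 had 73.4, 71.7 and 71.3 normalized counts under the scrambled hairpin and 13.7, 10.2 and 9.28 under the ABL1 hairpin, while transcript NM_005157 was higher in the knockdown (9.17, 6.72 and 10.3 against 17.6, 19.2 and 24.8). Of 9 liver line markers 6 were measured, led by AFP and by TF and ALB. Their summed normalized counts were 461666 to 521005 under the scrambled hairpin and 395265 to 440553 under the ABL1 hairpin, and 3 of 5 tested fell. Markers of other cell types moved as well: of 5 tested fibroblast and stellate markers 3 rose and 1 fell (summed 8586 to 9585, then 12014 to 13381), of 3 biliary markers 2 fell (8241 to 9478, then 5668 to 6130.1), of 3 endothelial markers 2 fell and 1 rose (159 to 173, then 114 to 138), and of 2 immune markers 1 of each (5679 to 6298, then 6526 to 7467). Whether they play a part in the values below was not tested.

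Of the 103 member rows, 86 rows of 82 genes had a mean of at least 10 normalized counts over the 6 libraries and were tested. Of these 21 rose, 21 fell and 44 did not pass, at a limma adjusted p of 0.05 (Benjamini-Hochberg over all 8600 tested rows). The share that rose, 24.4%, lies beside 24.5% of all tested rows, and the share that fell, 24.4%, beside 27.4%. Groups did not overlap for 49 of the 86 rows (57.0%, against 58.9% of all tested), and 10 rows (11.6%) were called and changed by at least 2-fold, against 16.9% of all tested. The members' median log2 change was 0.03 (quartiles -0.34 and 0.43), against 0.0018 for all tested rows. The shares that rose and that did not overlap thus lay near those of all tested rows, and the shares that fell and that were called at 2-fold lay somewhat below them. What follows are differences between members.

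The split between rises and falls rested in part on the scaling. With equal library totals 36 members rose and 15 fell, and with quantile normalization 30 rose and 20 fell. Equal totals raise the median log2 change of all tested rows by 0.17, since the scrambled libraries have the larger normalized totals. Of the 42 called members, 30 (15 in each direction) kept their call in each of up to 15 alternatives in which their row was tested. No called member was called in the other direction in any of these.

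**Figure D1:**
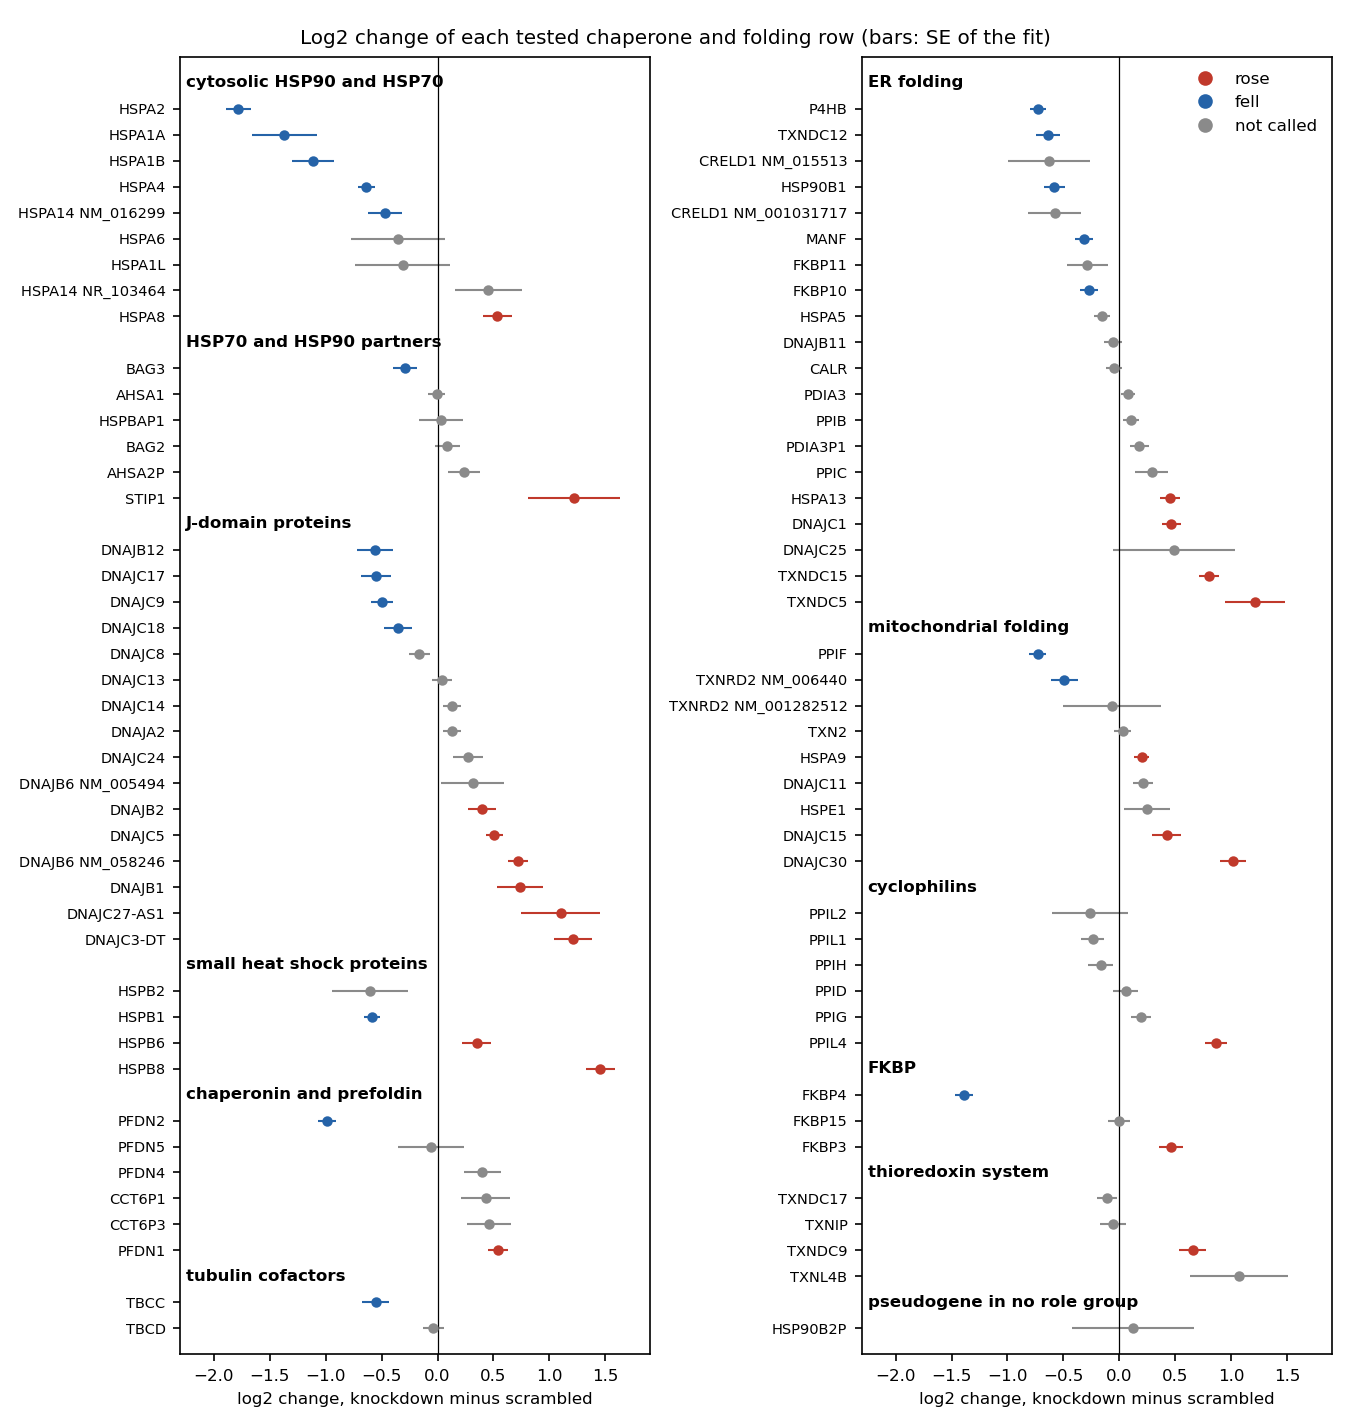
Log2 change (knockdown minus scrambled, x axis) of each of the 86 tested rows, grouped by role, with bars for the SE of the limma fit. Red marks rows that rose, blue rows that fell and grey rows that did not pass. HSPA2 lies lowest at -1.78 and HSPB8 highest at 1.45.

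**Figure D2:**
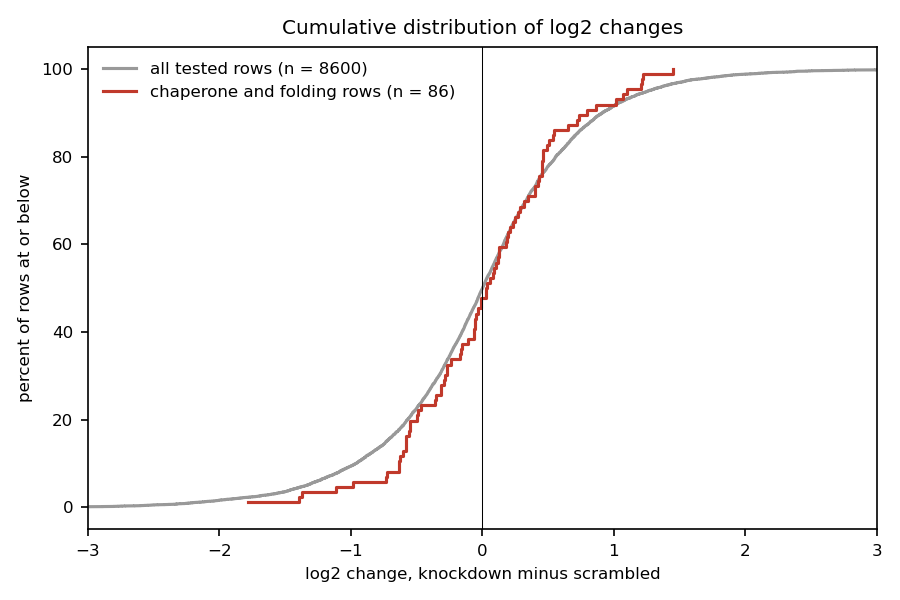
Cumulative percent of rows (y axis) at or below each log2 change (x axis, cut at 3 on either side) for the 86 member rows in red and all 8600 tested rows in grey. The curves run close together through the middle, with medians of 0.03 and 0.0018.

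Among cytosolic HSP70 rows HSPA2, HSPA1A and HSPA1B fell by over 2-fold and HSPA8 rose. Of 9 tested rows 5 fell and 1 rose (55.6% and 11.1%, beside 27.4% and 24.5% of all tested rows). The median log2 change was -0.47. HSPA2, an HSP70 best known for its role in sperm formation, had 1319, 1119 and 1145 normalized counts under the scrambled hairpin and 402, 321 and 322 under the ABL1 hairpin. Every knockdown library was thus far below every scrambled one, 3.43 times lower on the fitted scale (log2 change -1.78, SE 0.11, limma adjusted p = 7.90e-08). It is encoded by 1 exon in this model (chromosome 14, 64540468 to 64543234, plus strand, GRCh38) and showed the largest fall of any member.

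HSPA1A and HSPA1B, the stress-inducible HSP70 genes, are neighbours on chromosome 6 with nearly the same coding sequence. HSPA1A (chromosome 6, 31815464 to 31817946, plus strand) went from 72.5, 99.8 and 45.0 to 28.4, 21.5 and 28.9 normalized counts (log2 change -1.37, SE 0.29, limma adjusted p = 0.00164). HSPA1B (chromosome 6, 31827735 to 31830255, plus strand) went from 138, 106 and 163 to 65.5, 62.2 and 56.7 (log2 change -1.11, SE 0.19, limma adjusted p = 0.000296). In neither gene did the groups overlap. Within the scrambled group replicate 2 was highest for HSPA1A and lowest for HSPA1B and replicate 3 the reverse. Of the 50-base windows of HSPA1A 72.6%, and of those of HSPA1B 73.5%, also occur in transcripts of other genes, nearly all in the partner. How reads from such windows were treated is not stated in the sources used here. Whether shared sequence plays a part in this replicate pattern was not tested. Summed over the pair the values were 211, 206 and 208 under the scrambled hairpin and 93.9, 83.6 and 85.6 under the ABL1 hairpin, 2.38 times lower by the means. The sum varied far less between replicates (208 ± 2.36, SD, n = 3) than either row.

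HSPA8, the constitutive HSP70 that most cells make in quantity, moved the other way. It had 1209, 1889.7 and 1588 normalized counts under the scrambled hairpin and 2025, 2288 and 2384 under the ABL1 hairpin (log2 change 0.53, SE 0.13, limma adjusted p = 0.00453). The groups did not overlap, although the scrambled libraries spread widely. HSPA4, an HSP110-type exchange factor of HSP70, fell from 2585, 2871 and 2662 to 1856, 1736 and 1630.0 (log2 change -0.64, SE 0.08, limma adjusted p = 2.18e-05). HSPA14, an HSP70-like protein bound to ribosomes, fell by 0.47 on the log2 scale (transcript NM_016299), a call that was lost without knockdown replicate 2, scrambled replicate 2 or scrambled replicate 3 (adjusted p = 0.0700 to 0.0744) and with equal totals, with an adjusted p of 0.0126 to 0.118 across all alternatives. Its non-coding row NR_103464 had a log2 change of 0.45 and did not pass. HSPA6 and HSPA1L, with at most 21.7 normalized counts in every library, did not pass either, and the HSP90AA1 row was too low to test. HSP90AB1 and HSPH1 were not analysed here.

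The promoters of this family are shown because heat shock elements, the sites that heat shock factors bind in inducible genes, are a known feature of it. They are RefSeq sequences of GRCh38.p14 that run from 250 bases before to 50 after the gene's start, 5′ to 3′. The element was searched on both strands as GAA, then 2 bases of any kind, TTC, 2 bases of any kind and GAA, or as the same with TTC outermost. It stands in 172 of 35116 promoters of this length (0.490%) and in 3 of the 80 member genes with a promoter in that table: HSPA8, DNAJB6 and HSPA6. In HSPA8 and DNAJB6 the matches are in capitals. In HSPA1A and HSPA1B, which are textbook heat shock factor targets and can hold imperfect elements that a strict pattern misses, the pattern has no match in this window, and capitals mark the longest stretch of 49 bases that the pair share base for base. Aligned end to end, the pair's promoters are identical at 277 of 301 positions (92.0%).
HSPA8 (chr11:123062087-123062386, minus strand): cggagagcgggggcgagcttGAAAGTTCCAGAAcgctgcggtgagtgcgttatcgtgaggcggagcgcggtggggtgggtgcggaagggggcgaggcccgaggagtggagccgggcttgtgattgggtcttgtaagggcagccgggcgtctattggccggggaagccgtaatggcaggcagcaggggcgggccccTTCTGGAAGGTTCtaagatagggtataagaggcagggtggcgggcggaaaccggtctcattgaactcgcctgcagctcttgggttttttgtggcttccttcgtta
DNAJB6 (chr7:157336754-157337053, plus strand): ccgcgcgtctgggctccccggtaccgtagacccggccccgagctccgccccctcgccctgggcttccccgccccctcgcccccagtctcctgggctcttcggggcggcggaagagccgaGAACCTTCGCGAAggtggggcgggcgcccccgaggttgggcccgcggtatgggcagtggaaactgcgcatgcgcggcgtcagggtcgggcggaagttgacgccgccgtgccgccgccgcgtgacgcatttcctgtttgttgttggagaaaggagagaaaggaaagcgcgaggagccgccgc
HSPA1A (chr6:31815293-31815592, plus strand): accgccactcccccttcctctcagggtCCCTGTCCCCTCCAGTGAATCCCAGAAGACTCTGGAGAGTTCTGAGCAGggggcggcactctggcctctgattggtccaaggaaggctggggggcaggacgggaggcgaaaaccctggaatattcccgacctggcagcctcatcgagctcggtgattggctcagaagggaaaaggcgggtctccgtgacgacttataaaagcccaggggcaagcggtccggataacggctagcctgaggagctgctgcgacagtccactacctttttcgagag
HSPA1B (chr6:31827488-31827787, plus strand): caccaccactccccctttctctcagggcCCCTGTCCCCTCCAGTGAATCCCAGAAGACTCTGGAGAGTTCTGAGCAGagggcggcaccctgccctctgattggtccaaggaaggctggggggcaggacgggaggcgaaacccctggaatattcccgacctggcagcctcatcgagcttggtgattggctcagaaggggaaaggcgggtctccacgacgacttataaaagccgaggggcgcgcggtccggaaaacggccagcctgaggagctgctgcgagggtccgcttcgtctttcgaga

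In HSPA8 the elements begin at positions -230 and -55 from the start and in DNAJB6 at -131. Of the tested rows of these genes, HSPA8 and DNAJB6 NM_058246 rose, and HSPA6 and DNAJB6 NM_005494 did not pass. Among tested rows with a promoter, 2 of 20 that rose, 0 of 17 that fell and 2 of 33 not called hold the pattern. Both DNAJB6 rows share a promoter, and matches this few show no link to direction. A match describes the letters only, and a missing match says nothing of imperfect elements. The E-box CACGTG, the site of MYC and related factors, stands in 7.26% of all promoters and in 10 of the 80 members (12.5%). Of the tested rows that hold it HSP90B1 and TXNDC12 fell, HSPA9 rose and 4 were not called.

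Partners of HSP70 and HSP90 gave 2 calls, neither of which held throughout. Of 6 rows STIP1 rose and BAG3 fell (16.7% each, beside 24.5% and 27.4% of all tested rows), and the median was 0.06. BAG3, which joins HSP70 to small heat shock proteins and to autophagy, went from 1139, 955 and 978 to 937, 719 and 858 normalized counts (log2 change -0.29, SE 0.11, limma adjusted p = 0.0371). Its groups did not overlap but lay close together, and the call was lost with equal totals and quantile normalization (log2 changes -0.12 and -0.20) and without knockdown replicate 2, scrambled replicate 1 or scrambled replicate 3 (adjusted p = 0.0600 to 0.149). Over all alternatives its adjusted p was 0.00497 to 0.341. The STIP1 row (NM_001282652, 1 of 3 RefSeq transcripts of this HSP70 to HSP90 adaptor) held 5, 6 and 8 reads under the scrambled hairpin and 15, 13 and 16 under the ABL1 hairpin. Its log2 change of 1.22 (limma adjusted p = 0.0242, 0.0128 to 0.0774 over the alternatives) lost its call without knockdown replicate 1, knockdown replicate 2, knockdown replicate 3 or scrambled replicate 1 (adjusted p = 0.0555 to 0.0774). AHSA1, which activates the ATPase of HSP90, had 1492, 1574 and 1468 against 1431, 1542 and 1535, with overlapping groups. BAG2, HSPBAP1 and AHSA2P lay between 0.03 and 0.23, and AHSA2P was called higher with equal totals (0.41) and without knockdown replicate 1.

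J-domain proteins, which send clients to HSP70 and trigger its ATPase, moved both ways. Of 16 tested rows in this group, which leaves out J-domain genes placed with the endoplasmic reticulum or mitochondria below, 6 rose and 4 fell, with a median of 0.20. These are 37.5% and 25%, beside 24.5% and 27.4% of all tested rows, so that the share that fell lay near that of all tested rows. With equal totals 2 fell. DNAJB12, DNAJC14 and DNAJC18, grouped here by name, are themselves anchored in the endoplasmic reticulum membrane. Of the rises 2 are the non-coding RNAs DNAJC3-DT and DNAJC27-AS1. DNAJB6, which holds back aggregation, was measured in 2 rows. The more abundant NM_058246 rose from 585, 709 and 634 to 1067, 1075 and 1022 normalized counts (log2 change 0.72, SE 0.09, limma adjusted p = 2.79e-05), with every knockdown library above every scrambled one. NM_005494, the other row, had 65.0, 54.9 and 115 against 134, 78.0 and 76.3 and did not pass (log2 change 0.31).

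DNAJC5, the cysteine string protein of secretory vesicles, rose from 2273, 2181 and 2127 to 3197, 2864 and 3308 (log2 change 0.51, SE 0.08, limma adjusted p = 0.000126). DNAJB1, the main stress-inducible HSP40 of the cytosol, had 133, 109 and 177 under the scrambled hairpin and 170.2, 243 and 289 under the ABL1 hairpin. It was called higher (log2 change 0.74, SE 0.21, limma adjusted p = 0.00996), but knockdown replicate 1 lay below scrambled replicate 3. DNAJB2 rose as well (0.40), a call lost without knockdown replicate 1 (adjusted p = 0.0659), within 0.00178 to 0.0659 over all alternatives.

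The falls were as follows. DNAJC9, a J-domain protein that also binds histones, went from 663, 694 and 581 to 491, 441 and 442 (log2 change -0.49, SE 0.10, limma adjusted p = 0.00112), and DNAJC17 fell by 0.55 on the log2 scale (adjusted p = 0.00472). DNAJB12 (-0.56) and DNAJC18 (-0.35) were called lower with the authors' scaling and not with equal totals (-0.39 and -0.18, limma adjusted p = 0.0576 and 0.246). Over the alternatives their adjusted p was 0.00778 to 0.0576 and 0.0242 to 0.246, and DNAJC18 also lost its call without knockdown replicate 2, knockdown replicate 3, scrambled replicate 2 or scrambled replicate 3 (adjusted p = 0.0588 to 0.121). DNAJC8, DNAJC13, DNAJC14, DNAJA2 and DNAJC24 lay between -0.16 and 0.27 and did not pass. With equal totals DNAJC14 (0.30), DNAJA2 (0.30) and DNAJC24 (0.45) were called higher, DNAJC14 also with quantile normalization (0.21). Without knockdown replicate 2 DNAJC8 was called lower (-0.25).

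Of the non-coding rows, DNAJC3-DT (chromosome 13, 95672835 to 95676925, minus strand) had 65.9, 91.9 and 86.3 normalized counts under the scrambled hairpin and 166, 211 and 189 under the ABL1 hairpin, so that it was 2.32 times higher (log2 change 1.21, SE 0.17, limma adjusted p = 6.76e-05). DNAJC27-AS1 (chromosome 2, 24972126 to 25039694, plus strand) had 17.5, 22.4 and 10.3 against 24.5, 41.8 and 43.3 (log2 change 1.10, limma adjusted p = 0.0190, 0.00672 to 0.0793 over the alternatives). Its call was lost without knockdown replicate 2, knockdown replicate 3 or scrambled replicate 3 (adjusted p = 0.0683 to 0.0793). The sources used here do not say whether counting used the strand, so reads of an antisense RNA and of the gene it overlaps cannot be told apart.

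Small heat shock proteins, which hold unfolded clients without ATP, divided. HSPB8, which works in a complex with BAG3, had 243, 208 and 184 normalized counts under the scrambled hairpin and 673, 538 and 533 under the ABL1 hairpin. It was 2.74 times higher (log2 change 1.45, SE 0.13, limma adjusted p = 1.60e-06), the largest rise of any member, and no library of one group came near the other. HSPB1 (HSP27), the most abundant of the family, fell from 5814, 5211 and 5694 to 3756, 3508 and 3885 (log2 change -0.58, SE 0.07, limma adjusted p = 2.87e-05), again without overlap. HSPB8 lies on chromosome 12 (119178642 to 119194748, plus strand) and HSPB1 on chromosome 7 (76302544 to 76304295, plus strand). HSPB6 was called higher (0.35, adjusted p = 0.0428, 0.00496 to 0.198 over the alternatives), and the call was lost without knockdown replicate 1, knockdown replicate 3, scrambled replicate 1, scrambled replicate 2 or scrambled replicate 3 (adjusted p = 0.0538 to 0.198). HSPB2 did not pass (-0.60).

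**Figure D3:**
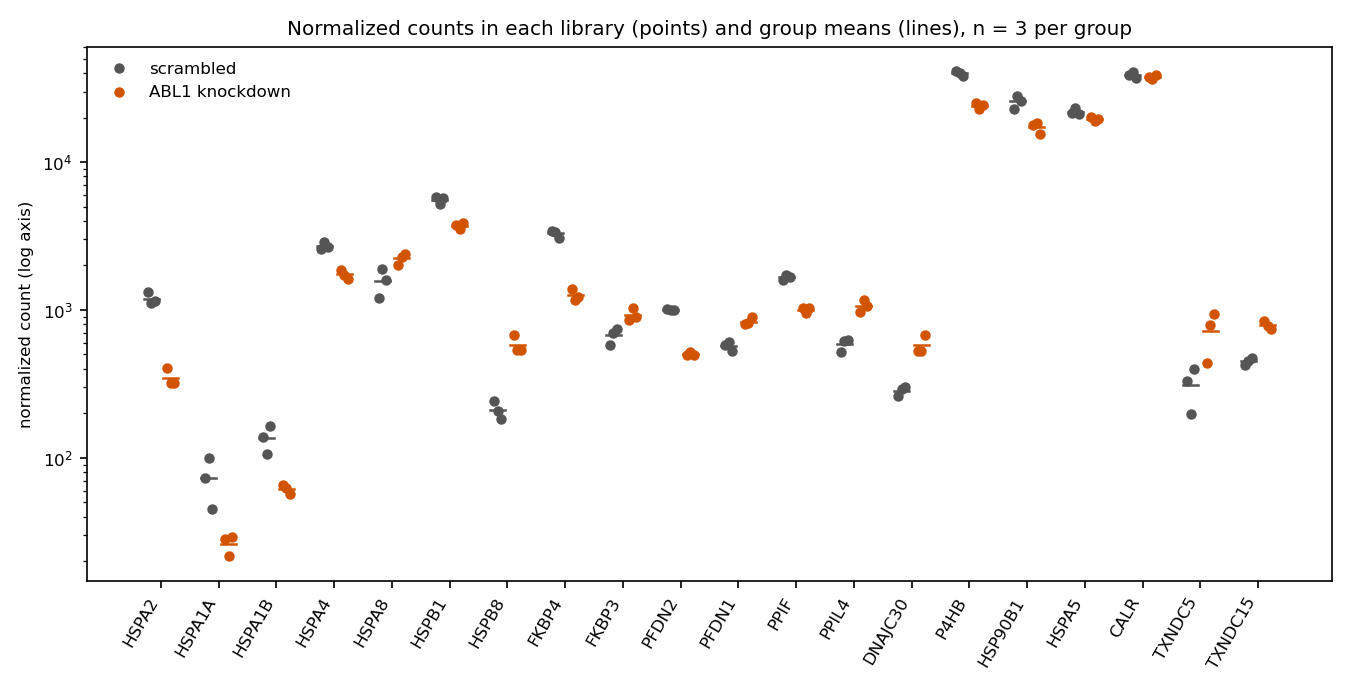
Normalized counts on a log axis of 20 members (x axis) in each scrambled library (grey) and each knockdown library (orange), with lines at the group means of 3 libraries. HSPA2, FKBP4 and PFDN2 lie lower and HSPB8, DNAJC30 and TXNDC15 higher in the knockdown libraries without overlap, while CALR overlaps between groups.

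Prefoldin subunits, which form 1 complex with each other, moved in opposite directions. PFDN2, a beta-type subunit, had 1009.6, 994 and 994 normalized counts under the scrambled hairpin and 496, 521 and 495 under the ABL1 hairpin. It was 1.98 times lower with little spread in either group (log2 change -0.99, SE 0.08, limma adjusted p = 7.11e-07). PFDN1, another beta-type subunit, rose from 579, 609.7 and 530.1 to 798, 813 and 891 (log2 change 0.54, SE 0.09, limma adjusted p = 0.000290). PFDN4 had 230.1, 353 and 367 against 414, 461 and 361 and was not called (log2 change 0.40, SE 0.16, limma adjusted p = 0.0563). It was called under 8 alternatives, among them without knockdown replicate 3, scrambled replicate 2 or scrambled replicate 3, with an adjusted p of 0.00748 to 0.240 over all. PFDN5, at 19.6 to 29.1 normalized counts, did not pass (-0.06).

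Chaperonin genes are thinly covered here. The rows of TCP1 and CCT3, subunits of TRiC, were too low to test, and the other subunits were not analysed here. The CCT6 pseudogene transcripts CCT6P1 and CCT6P3, which share windows with each other (47.6% and 35.6% of their 50-base windows occur elsewhere), had log2 changes of 0.43 and 0.46 and did not pass, although their groups did not overlap. With equal totals each was called higher (0.60 and 0.63). Of the tubulin cofactors, which fold and join alpha and beta tubulin, TBCC fell from 554, 409 and 474 to 328, 301 and 345 (log2 change -0.55, SE 0.12, limma adjusted p = 0.00202). TBCD had 750.4, 835 and 740.3 against 758, 694 and 817 and did not pass.

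The endoplasmic reticulum rows held most of the members' reads. Summed over all 103 rows, members took 2.24, 2.40 and 2.28% of the counted reads under the scrambled hairpin and 2.20, 2.25 and 2.20% under the ABL1 hairpin. Of that, the 23 endoplasmic reticulum rows took 1.68, 1.80 and 1.70% and 1.59, 1.60 and 1.58%. Per kilobase of transcript, the scrambled means were 20479 normalized counts for CALR, 15325 for P4HB, 9017 for HSP90B1 and 5593 for HSPA5, and HSPB1 at 6131 was the one member outside this compartment at that level. CALR stood above P4HB in each group, at 19793 against 9261 in the knockdown.

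Of the 20 tested rows 5 fell, 4 rose and 11 did not pass, with a median of -0.05. The shares that fell and rose, 25% and 20%, lay near the 27.4% and 24.5% of all tested rows. With equal totals 8 rose and 3 fell, and with quantile normalization 9 rose. P4HB, the protein disulfide isomerase that is also a subunit of prolyl 4-hydroxylase, had 41187, 40237 and 38252 normalized counts under the scrambled hairpin and 24928, 22921 and 24473 under the ABL1 hairpin. Its groups lay far apart, 1.66 times lower in the knockdown (log2 change -0.73, SE 0.07, limma adjusted p = 4.28e-06; chromosome 17, 81843159 to 81860694, minus strand, 11 exons). With quantile normalization its log2 change was -0.44. P4HB alone took 0.471, 0.465 and 0.446% of the counted reads under the scrambled hairpin and 0.320, 0.305 and 0.317% under the ABL1 hairpin. Without it the members took 1.77, 1.94 and 1.83% and 1.88, 1.94 and 1.88%, ranges that overlap. These percentages set the library totals equal. As summed normalized counts, on the authors' scaling, members without P4HB had 154821, 167536 and 156932 under the scrambled hairpin. Under the ABL1 hairpin they had 146342, 146124 and 145276, lower without overlap.

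HSP90B1, the HSP90 of this compartment, fell from 23029, 28213 and 26074 to 17836, 18411 and 15405 (log2 change -0.58, SE 0.09, limma adjusted p = 0.000214), and TXNDC12, a thioredoxin-fold oxidoreductase, from 711, 861 and 787 to 534, 546 and 441 (log2 change -0.63, SE 0.11, limma adjusted p = 0.000335). Each had groups without overlap. With quantile normalization the log2 change of HSP90B1 was -0.26 (adjusted p = 0.0362, 4.63e-07 to 0.0362 over the alternatives). MANF (-0.31), a secreted partner of HSPA5, and FKBP10 (-0.27), a collagen-binding prolyl isomerase, fell by less, and neither was called with equal totals (-0.14 and -0.10). FKBP10 was also not called with quantile normalization (-0.08) or without knockdown replicate 2 (adjusted p = 0.0509). Over the alternatives the adjusted p was 0.00256 to 0.150 for MANF and 0.00307 to 0.331 for FKBP10.

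The central chaperones HSPA5 and CALR were not called. HSPA5 (BiP) had 21417, 23151 and 21008 under the scrambled hairpin and 20158, 19100.4 and 19558 under the ABL1 hairpin (log2 change -0.16, SE 0.07, limma adjusted p = 0.0843), with groups that just missed each other. CALR, the lectin chaperone calreticulin, had 38802, 40818 and 37297 against 37542, 36711 and 38747 with overlap (log2 change -0.05, SE 0.07). Their signs turned with equal totals, to 0.02 and 0.13 without a call (adjusted p = 0.834 and 0.126), and with quantile normalization, to 0.19 and 0.26 with one (adjusted p = 0.0148 and 0.00278). Over all alternatives the adjusted p was 0.0148 to 0.834 for HSPA5 and 0.00278 to 0.901 for CALR. PDIA3, the isomerase that works with calreticulin, had 7482, 7757 and 7715 against 7979, 8251 and 8024 and was not called (0.08), but was called higher with equal totals and quantile normalization (0.25 and 0.30). The same held for the cyclophilin PPIB (0.10, then 0.28 and 0.21). Others that did not pass were both rows of CRELD1 (-0.63 and -0.58), FKBP11 (-0.29), the HSPA5 partner DNAJB11 (-0.06), PPIC (0.29), DNAJC25 (0.49) and the pseudogene PDIA3P1 (0.18). Of these, CRELD1 NM_001031717 was called lower with quantile normalization (-0.68) and with reads summed per gene (-0.61). PPIC was called higher with equal totals (0.46) and without scrambled replicate 3 (0.43), and PDIA3P1 with equal totals (0.35) and quantile normalization (0.27).

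Among the rises, TXNDC15 went from 425, 454 and 474 to 840.2, 781 and 738 normalized counts (log2 change 0.80, SE 0.09, limma adjusted p = 1.25e-05). TXNDC5, a disulfide isomerase with thioredoxin domains, had 331, 197 and 397 against 437, 787 and 937, a wide spread in each group without overlap (log2 change 1.21, SE 0.27, limma adjusted p = 0.00228). Of its 50-base windows 89.5% also lie in the readthrough gene BLOC1S5-TXNDC5. DNAJC1, a membrane J-domain protein, rose from 514, 492 and 536 to 710.1, 711 and 708 (log2 change 0.47, SE 0.08, limma adjusted p = 0.000532), and HSPA13, an HSP70-like ATPase, from 864, 888 and 907 to 1194, 1345 and 1106 (log2 change 0.45, SE 0.09, limma adjusted p = 0.000898). Thioredoxin-fold members of the compartment were thus found on either side, P4HB and TXNDC12 lower and TXNDC15 and TXNDC5 higher.

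Promoters of 3 abundant members of this compartment are shown because each holds the ER stress element, CCAAT, then 9 bases of any kind and CCACG, searched on both strands and set in capitals, while only HSP90B1 was called. The element stands in 27 of 35116 promoters (0.0769%) and in 4 of the 80 members, of which the other is CRELD2, whose row was too low to test. A shorter form of it, ER stress element II, stands in 19 of all promoters and in 0 members.
HSP90B1 (chr12:103930160-103930459, plus strand): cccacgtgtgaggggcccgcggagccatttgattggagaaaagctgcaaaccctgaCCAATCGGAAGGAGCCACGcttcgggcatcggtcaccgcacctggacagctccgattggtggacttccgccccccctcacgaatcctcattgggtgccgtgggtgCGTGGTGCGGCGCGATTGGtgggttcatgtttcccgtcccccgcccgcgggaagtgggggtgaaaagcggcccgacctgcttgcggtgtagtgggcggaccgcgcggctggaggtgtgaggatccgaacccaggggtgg
HSPA5 (chr9:125241294-125241593, minus strand): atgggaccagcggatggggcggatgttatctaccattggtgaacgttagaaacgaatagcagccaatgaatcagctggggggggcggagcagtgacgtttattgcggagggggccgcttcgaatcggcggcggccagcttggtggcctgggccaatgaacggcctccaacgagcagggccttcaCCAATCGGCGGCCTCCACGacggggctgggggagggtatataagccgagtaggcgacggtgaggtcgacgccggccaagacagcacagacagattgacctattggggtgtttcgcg
CALR (chr19:12938359-12938658, plus strand): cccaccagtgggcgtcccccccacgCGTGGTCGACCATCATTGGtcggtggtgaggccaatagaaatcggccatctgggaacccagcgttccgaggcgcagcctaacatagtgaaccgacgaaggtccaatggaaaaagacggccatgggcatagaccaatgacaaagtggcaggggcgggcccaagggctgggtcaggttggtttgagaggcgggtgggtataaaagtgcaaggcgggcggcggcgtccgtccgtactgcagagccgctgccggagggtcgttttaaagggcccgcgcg

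**Figure D4:**
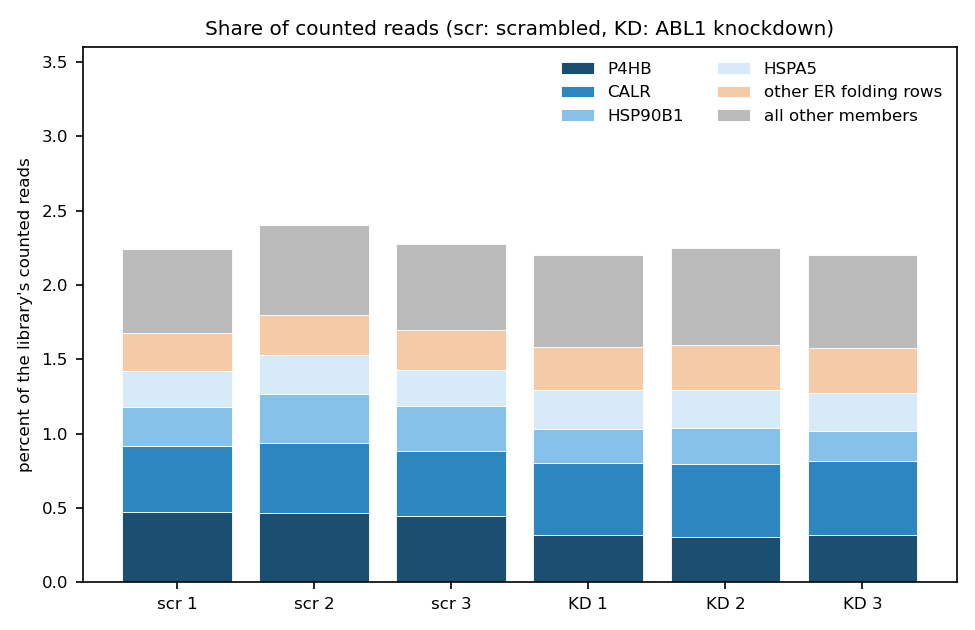
Stacked bars of the percent of counted reads (y axis) that P4HB, CALR, HSP90B1, HSPA5, the other endoplasmic reticulum rows and all other members take in each of the 6 libraries. The total is 2.24, 2.40 and 2.28% under the scrambled hairpin and 2.20, 2.25 and 2.20% under the ABL1 hairpin, and the P4HB segment is shorter in each knockdown library.

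In the mitochondrial group 3 of 9 rows rose and 2 fell (33.3% and 22.2%, beside 24.5% and 27.4% of all tested rows). The median log2 change was 0.20. With equal totals 5 rose, and without scrambled replicate 1 or scrambled replicate 3 only 1 did. PPIF (cyclophilin D), a prolyl isomerase of the matrix that regulates the permeability transition pore, had 1597, 1733 and 1662 under the scrambled hairpin and 1029, 951 and 1026 under the ABL1 hairpin. It was 1.66 times lower without overlap (log2 change -0.73, SE 0.08, limma adjusted p = 5.74e-06). TXNRD2, the mitochondrial thioredoxin reductase, fell in its main row NM_006440 from 489, 428 and 404 to 310.1, 277 and 355 (log2 change -0.49, SE 0.12, limma adjusted p = 0.00407). DNAJC30 rose from 260.1, 290.3 and 303 to 527, 531 and 679, 2.02 times higher (log2 change 1.02, SE 0.12, limma adjusted p = 1.57e-05). HSPA9 (mortalin), the HSP70 that pulls proteins into the matrix, was among the most abundant members at 6352, 7023 and 6553 and 7415, 7994 and 7444. Its small rise (0.20, adjusted p = 0.0319, 0.000834 to 0.109 over the alternatives) was lost without knockdown replicate 1, knockdown replicate 2, scrambled replicate 1 or scrambled replicate 3 (adjusted p = 0.0604 to 0.109). DNAJC15 rose by 0.42 (adjusted p = 0.0156, 0.00218 to 0.0657 over the alternatives), lost without scrambled replicate 1 or scrambled replicate 3 (adjusted p = 0.0503 to 0.0657). HSPE1, the co-chaperonin HSP10, had 163, 270.1 and 212 against 186, 316 and 268 and did not pass, and HSPD1 was not analysed here. The thioredoxin TXN2 (0.03), DNAJC11 (0.21) and the second row of TXNRD2 (-0.07) did not pass. DNAJC11 was called higher with equal totals (0.38), with quantile normalization (0.32) and without scrambled replicate 2 (0.29), and TXN2 with equal totals (0.20).

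Prolyl isomerases of the cytosol and nucleus had 1 strong fall. FKBP4 (FKBP52), which rides on HSP90 and helps steroid receptors mature, went from 3439, 3348 and 3088 to 1377, 1173 and 1217 normalized counts. It was 2.62 times lower, with a gap between groups wider than the spread within either (log2 change -1.39, SE 0.08, limma adjusted p = 5.51e-08; chromosome 12, 2794953 to 2805423, plus strand, 10 exons). FKBP3, a nuclear family member, rose from 581, 702 and 742 to 859, 1024 and 899 (log2 change 0.46, SE 0.11, limma adjusted p = 0.00303), and FKBP15 was near 0 (-0.0065). FKBP5 was not analysed here. Of 6 tested cyclophilins PPIL4, a nuclear one with an RNA-binding domain, rose from 523, 612 and 623 to 972, 1169.8 and 1062 (log2 change 0.87, SE 0.10, limma adjusted p = 1.35e-05) and 0 fell. These are 16.7% and 0%, beside 24.5% and 27.4% of all tested rows. PPID, the cyclophilin that binds HSP90 as FKBP4 does, had 519, 680.3 and 609.9 against 569, 688 and 616 with overlap (0.06). PPIL1 (-0.24), PPIH (-0.17), PPIL2 (-0.27) and PPIG (0.19) did not pass either. PPIG was called higher with equal totals (0.36), with quantile normalization (0.28) and without scrambled replicate 2 (0.27), and PPIL1 lower without scrambled replicate 1 (-0.30). The rows of PPIA and FKBP1A, the cytosolic isomerases best known as drug targets, are single low transcripts that were not tested.

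In the thioredoxin system TXNDC9, which binds the chaperonin, rose from 179, 222 and 203 to 303, 335 and 312 (log2 change 0.65, SE 0.12, limma adjusted p = 0.000542). TXNIP, the inhibitor of thioredoxin that follows glucose, had 439, 382 and 413 against 384, 459 and 349 with overlap (-0.06, adjusted p = 0.709). TXNDC17 (-0.11) did not pass. TXNL4B spread widely, with 9.17, 10.1 and 21.6 against 15.7, 28.3 and 47.5 (1.07, adjusted p = 0.0572). It was called higher with equal totals (1.23), with median-of-ratios scaling and without knockdown replicate 1 or scrambled replicate 3, with an adjusted p of 0.0118 to 0.241 over the alternatives. TXN and TXNRD1 were not analysed here.

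Other genes of protein folding, from a list of 70 symbols outside the member rule, were set beside the members. Of 35 tested rows 16 fell and 7 rose, with a median of -0.20, beside the 27.4% and 24.5% of all tested rows. GRPEL1, an exchange factor of HSPA9, fell by 1.17 on the log2 scale, while its paralog GRPEL2 rose (0.34). In the endoplasmic reticulum the calcium-binding RCN1 (-1.28), the oxidase ERO1A (-0.93), which reoxidizes disulfide isomerases, the HSPA5 partner SDF2L1 (-0.92), the peroxiredoxin PRDX4 (-0.62) and SEL1L (-0.47), which acts in degradation, fell. The ATPase VCP (0.39), TOR1A (0.40), QSOX1 (0.73) and SDF2 (1.74) rose. The groups of QSOX1 overlapped, and SDF2 was a low row, with group means of 15.3 and 53.3 normalized counts. Calls of genes on this list were not checked under the alternatives. HSF1, the heat shock transcription factor, was not called (-0.08, adjusted p = 0.468). CDC37, which brings kinases to HSP90, fell by 0.20 (adjusted p = 0.0422), and the prefoldin-like PDRG1 did not pass (0.22).

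Several values carry the uncertainty of shared sequence. Of 101 member transcripts matched to GENCODE 29, 23 share over 10% of their 50-base windows with transcripts of another gene and 41 share none. Beside the HSP70 pair and TXNDC5 these include TXNDC12 (46.5%), PDIA3P1 (44.5%), HSPA8 (15.4%) and HSPB1 (11.4%), and the sources used here do not say how such reads were treated. Split by level, of the 43 tested rows at or above the median level (484 normalized counts) 11 rose and 13 fell, and of the 43 below it 10 rose and 8 fell. All tested rows were not split in this way, so these counts only describe the members. At all levels together 24.5% of all tested rows rose and 27.4% fell. The 17 rows not tested had means of 2.33 to 9.73, and 14 of them belong to genes with several RefSeq transcripts. They are rows of HSP90AA1, HSPA7, TCP1, CCT3, PPIA, PPIEL, FKBP1A, FKBP2, FKBPL, CRELD2, DNAJC9-AS1, DNAJC12, DNAJC16, DNAJC22, HSPB7, HSPB9 and TBCB. HSP90B2P, a pseudogene transcript in no role group, was tested and did not pass (0.12).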

How the data were processed

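Per the labels, total RNA of 6 Huh7 libraries was sequenced, and groups and replicate numbers were taken from their titles. The authors deposited 1 signal value per RefSeq transcript and library. HISAT2 2.0.4 and HTSeq 0.6.1 with build hg38 are named in the submitters' processing notes, with no role stated. The sources used here do not give the annotation, strand setting or row filter. Each deposited signal is the square root of a library step times the reads plus 0.375, and reads came out whole within 0.05 for 100% of rows in each library. Normalized counts are reads times the relative step. They were tested as log2(normalized count + 1) with limma 3.58.1 (eBayes with trend, two-sided) in R 4.3.3 on all rows with a mean of at least 10. The fit was also run on simulated counts of fixed dispersion in which, unlike here, few rows were changed. That run therefore does not vouch for the calls in these data. Fold changes are on the log2(normalized count + 1) scale, which understates changes of low rows.

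Members, role groups and lists were chosen with earlier results of these data known. Named members are, per role group, up to 4 called rows with the smallest adjusted p and up to 2 called rows against the group's majority, the 5 largest rises and falls, a set of textbook members whatever their values, and symbols with rows called in opposite directions. Other called rows were named after their values were seen. Replicate numbers did not pair the libraries. Positions and transcript lengths are from GENCODE 29 (GRCh38), matched by RefSeq identifier for 101 of 103 rows, promoters from RefSeq (GRCh38.p14). Protein sequences were not used here, so the protein features planned were not computed. Alternatives changed scaling, pseudocount (8), filter (none, or a mean of 50), variance model (voom), feature (reads summed per gene), threshold (0.01), the replicate block and the libraries, each left out in turn.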

Additional observations from a re-analysis of the deposited data

How the results depend on the processing

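The counts of members that rose and fell, 21 each, were within 1.5 times of that under every alternative run but 1: with equal totals 36 rose (and 15 fell). Quantile normalization gave 30 rises and 20 falls, median-of-ratios scaling 23 and 21, voom 22 and 21, and the stricter threshold of 0.01 15 and 16. Leaving out each library in turn gave 17 to 23 rises and 18 to 21 falls. The replicate block gave 26 rises and 21 falls and kept all 42 calls, adding AHSA2P, DNAJC11, PFDN4, PPIG and TXNL4B. Same-numbered libraries deviated together only weakly (r of deviations 0.0471, 0.0765 and 0.0768), and scrambled replicate 1 correlated best with knockdown replicate 3 (0.0886). By role group, endoplasmic reticulum rises went from 4 to 8 with equal totals and 9 with quantile normalization, and falls from 5 to 3 with equal totals. J-domain falls went from 4 to 2 with equal totals and with the threshold of 0.01, and mitochondrial rises from 3 to 5 with equal totals and to 1 without scrambled replicate 1 or scrambled replicate 3 and with that threshold. Other group counts that moved by over 1.5 times started from 2 or fewer. The sign turned for CALR and HSPA5 with quantile normalization, where both were called (0.26 and 0.19), and with equal totals, where neither was (0.13 and 0.02). AHSA1, DNAJB11, FKBP15, TBCD and TXNIP, not called in the main fit, also turned sign under both scalings without a call. Further uncalled members with log2 changes near 0 turned sign under either scaling alone. With reads summed per gene HSPA14 was no longer called (a log2 change of -0.34 with a limma adjusted p = 0.0569), and CRELD1 was called lower (-0.61, adjusted p = 0.0255). The log2 change of a called member that kept its call shrank by over 1.5 times, against the main fit, for P4HB (-0.44) and HSP90B1 (-0.26) with quantile normalization. With equal totals it did so for DNAJC9 (-0.32) and TXNRD2 (-0.32). The same held for STIP1, whose lowest log2 change over the alternatives was 0.73, with its call kept. HSPA9 rose to 0.37 and 0.39 with equal totals and quantile normalization. The cause of these moves was not tested. Depth limits the rows with few reads, such as STIP1 and DNAJC27-AS1.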

Other observations

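Scrambled replicate 1 was the lowest of its group in 42 of the 86 tested member rows (48.8%, against 34.4% of all tested rows), and scrambled replicate 2 in 16 (18.6%, against 35.7%). In HSPA8 the values were 1209, 1889.7 and 1588, in HSPE1 163, 270.1 and 212 and in PFDN4 230.1, 353 and 367. These members share libraries and scaling, so the counts are a description.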
